A study of Mus musculus with 6 samples.

Results

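Circular RNAs of cultured mouse brown adipocytes were compared between day 8 and day 4 of differentiation, the maturation phase. A circular RNA (circRNA) is a closed loop of exons, made when a splice site is joined backwards to one that lies upstream of it, and it is counted by the reads that cross this back-splice junction. The comparison took every circRNA with at least 10 reads in at least 2 of the 6 libraries of the study, 1368 of the 3869 listed. This choice used abundance on any day. Of the 1368, 229 reached it only with the help of the day 8 libraries and 224 only with those of day 4, so the filter itself favours a direction for them.

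The cells were stromal vascular cells, the non-adipocyte fraction of fat, from C57BL/6 mice aged 6 weeks. The labels name the tissue inguinal BAT and the cells BAT preadipocytes (BAT is brown adipose tissue), while inguinal fat is usually classed as a white depot. Day 4 cells had spent 4 days with insulin, dexamethasone and isobutylmethylxanthine, written in the labels as 2.85 mM, 0.3 mM and 0.63 mM. Day 8 cells had the same induction and then 4 more days with 200 nM insulin and 10 nM T3, the active thyroid hormone. Both media held fetal bovine serum. Day 0 cells were taken before induction, and here they served to estimate the spread and to place the values in the course. Each day had 2 libraries, and the labels do not say whether these came from separate cultures or animals, and the spread behind the p-values may therefore be technical. In such bulk samples fewer cells of a type and less RNA per cell cannot be told apart.

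Brown adipocytes mature by filling with lipid droplets and mitochondria. Insulin drives glucose uptake and lipid synthesis, and T3 acts through nuclear receptors that bind DNA next to genes of lipid synthesis, fuel oxidation and heat production. Malic enzyme is a classical target of thyroid hormone and supplies the NADPH used to make fatty acids. Because circRNAs lack free ends they resist exonucleases and can persist in cells that have left the cell cycle. Their level follows the transcription of the host gene, the choice between linear and backward splicing, and slow decay. The values below are therefore levels of circles, not of the messenger RNAs of the same genes.

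Host genes were named from exon structure. For each circRNA the distance between its 2 ends was matched to the distance from the start of one exon to the end of another in a GENCODE M21 transcript on the same chromosome and strand. Of the 1368 circRNAs, 1205 were named in this way, 38 by an end shared with such a circRNA and 6 by overlap, and 119 had no named host. A circRNA is written with its host and its first and last exon in the host's reference transcript, so that circAcss3(3-5) holds exons 3 to 5 of Acss3. An (x) marks a circRNA whose distance between ends was not matched in this way and whose host came from a shared end or from overlap. A circRNA with no host carries its chromosome and start. Positions are those of the deposited table, build mm9, counted from 1.

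The sequence that tells a circle from the linear transcript is its back-splice junction. The junctions below belong to called circRNAs with both ends matched to annotated exons and to a circle of Pde4d, whose host sum was called lower. Each line gives 15 bases of the last exon in lower case, followed by 15 bases of the first exon in capitals, 5′ to 3′ along the RNA (as DNA letters, from the GENCODE M21 transcripts).
circMlxipl(3-7): tcatggagatatcagATGTGCAACGGAGGA
circAcss3(3-5): actgggctgcctaagGTCTCTAAGCTGGCT
circAcss3(2-5): actgggctgcctaagGTTTGTGGAAGGGAT
circBckdhb(4-8): gatacagtttgcaagGAAAAGATAGAGTGT
circFkbp5(2): agttggcattcccagGTCCTTAGGATTCTG
circNox4(12-17): aaaatgtaacagaggTGTCCTACTGAAACC
circGlis3(4): cccaacaagtgtacgGTCCGTTATTTTGCA
circGlis3(2): caaatcctgagaaagACTTATCACCTATCC
circFndc3b(3-4): ttcagtgcatccaagGTAGCAGGTTGAGGG
circPdlim5(3-6): tacgaagaaggcaaaAGCTTCAGCTGCAGC
circPde4d(4-7): aagccaccatcacagTTTCGATGTGGACAA

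The pair of Acss3 circles shares its lower-case arm, since both end with exon 5, and differs in the capitals, because one starts with exon 3 and the other with exon 2. From the annotation, the spliced length of these circles ran from 215 nt for circFndc3b(3-4) to 1114 nt for circGlis3(4). circMlxipl(3-7), both Acss3 circles, circBckdhb(4-8), circNox4(12-17), circGlis3(4), circPdlim5(3-6) and circPde4d(4-7) held coding sequence alone. circGlis3(2) and circFndc3b(3-4) held the start codon with 96 nt and 28 nt of untranslated leader. circFkbp5(2) was a single exon of 234 nt, all of it untranslated.

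The change between days was tested with limma on the log2 of CPM (counts scaled to a fixed total per library) plus 43.7, the lowest CPM above 0 in any library. A circRNA is called where the Benjamini-Hochberg adjusted p over all 1368 is under 0.05. Of the 1368, 14 passed (1.02%), with 10 higher (0.731%) and 4 lower (0.292%) after maturation. Of the 10 higher, 9 reached the abundance filter only through day 8, all but circBckdhb(4-8), while the 4 lower ones would have reached it without the libraries of either day. The filter thus favoured the direction of the 9, and the split of the calls by direction is a description that supports nothing. At an unadjusted p under 0.05, 110 were higher (8.04%) and 109 lower (7.97%), and 52 of the 110 needed day 8 to pass the filter, as 26 of the 109 needed day 4. In 310 circRNAs both day 8 libraries lay above both day 4 libraries (22.7%), in 358 both lay below (26.2%), and the remaining 700 overlapped. The median fitted log2 difference was 0.03, and -0.01 without scaling between libraries. The calls held with median-of-ratios scaling and without scaling. None held when the 4 libraries of days 4 and 8 were fitted alone (217 at an unadjusted p under 0.05), where the adjusted p of the 14 ran from 0.0624 to 0.109, and 4 of the 14 were called in any fit that left out a library.

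A listed 0 in this table does not mean that a circRNA was absent. The smallest listed value is 2 reads. At day 8, 537 circRNAs had at least 20 reads in a library, and 16 of them (2.98%) were listed at 0 in the other library of that day. At day 4 this held for 14 of 576. circLrp6(2) had 68 reads in one day 4 library and was listed at 0 in the other. No fold change is given below for a circRNA listed at 0 in both libraries of a day, or with 3 reads or fewer in all at that day.

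**Figure D1:**
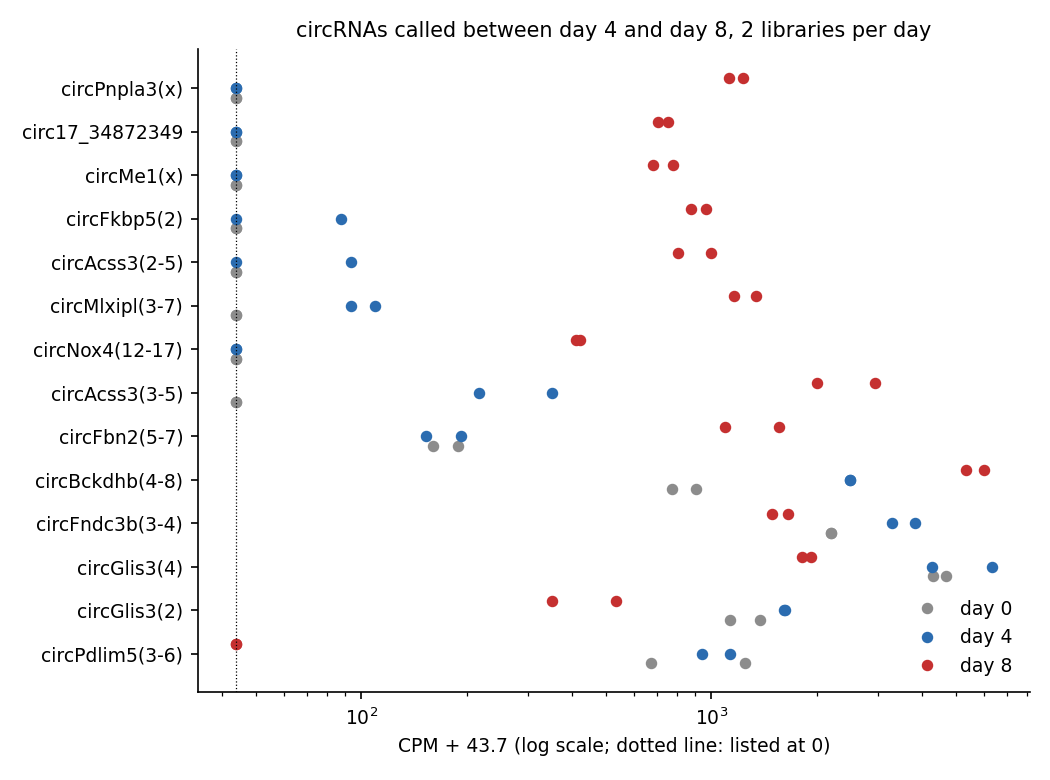
CPM plus 43.7 on a log axis for the 14 called circRNAs, with a point for each library (grey day 0, blue day 4, red day 8; the dotted line marks a listed 0). The 10 higher circRNAs have both red points to the right of both blue points, and for circPdlim5(3-6) both red points lie on the line of a listed 0.

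The list of lipid and fatty acid metabolism held the most calls. Among 11 circRNAs of its 6 hosts, 4 were called higher and 0 lower, against 0.731% and 0.292% of all kept circRNAs. In 10 of 11 (90.9%) the libraries of the days did not overlap, all higher at day 8. Over all kept circRNAs 22.7% were higher and 26.2% lower without overlap. The median log2 difference of the 11 was 3.07, or 2.43 with circRNAs listed at 0 set to a bound of 3 reads per library, against 0.03 over all 1368. Their summed level was 1203 and 817 CPM at day 4 and 8966 and 8599 CPM at day 8. Of the 11, 5 are circles of Acss3 and 2 of Me1, so they are not 11 separate genes. The filter let 9 of the 11 in only through day 8, which favours this direction, so these counts and the median describe the kept circles and support nothing about the list.

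Pnpla3 encodes adiponutrin, a lipid droplet protein whose gene is switched on by feeding and insulin. circPnpla3(x) (chr15:84001512-84016511, plus strand, circBase mmu_circ_0005910) starts at exon 2 and was listed at 0 in the 4 libraries of days 0 and 4. At day 8 it had 1078 and 1184 CPM, from 44 and 50 reads, and rose with a limma adjusted p of 0.0323. Me1 encodes the cytosolic malic enzyme. circMe1(x) (chr9:86539918-86573881, minus strand) was likewise listed at 0 in all 4 earlier libraries and had 735 and 639.6 CPM at day 8 (limma adjusted p = 0.0361). A second circle, circMe1(7-9), was at a listed 0 in the day 4 libraries and had 318 and 308 CPM at day 8, and was not called (limma adjusted p = 0.131).

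Acss3 encodes an acyl-CoA synthetase of the mitochondrion that activates short-chain fatty acids such as propionate. circAcss3(3-5) (chr10:106482269-106490572, minus strand) was listed at 0 at day 0, had 306 and 173 CPM at day 4, and reached 2891 and 1966 CPM at day 8. The ratio of the day means was 10.1, and the log2 difference 3.18 (SE 0.49, limma adjusted p = 0.0426). circAcss3(2-5) (chr10:106482269-106522007, minus strand) rose from a listed 0 and 49.5 CPM to 955 and 758 CPM (limma adjusted p = 0.0426). The other 3 Acss3 circles were also above both day 4 libraries at day 8. circAcss3(9-13) went from a listed 0 in both to 269 and 261 CPM, circAcss3(2-7) from 43.7 and 0 to 588 and 474 CPM, and circAcss3(3-7) from 241 and 173 to 735 and 853 CPM, and their limma adjusted p ran from 0.0566 to 0.172.

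Summed over its 5 circles, Acss3 had 590.4 and 396 CPM at day 4 and 5439 and 4311 CPM at day 8. The log2 difference of the sum was 3.25 (SE 0.39, limma adjusted p = 0.0216 over 954 host sums). The 2 circles that begin at exon 2 carried 3 reads or fewer at day 4, while the 2 that begin at exon 3 were already above 0 in both libraries. Exon 3 was thus the first exon of most Acss3 reads on both days.

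Mlxipl encodes ChREBP, the transcription factor that senses glucose and turns on lipid-synthesis genes. It stands on the list of adipogenic transcription factors. circMlxipl(3-7) (chr5:135597376-135599887, plus strand) was listed at 0 at day 0 and had 65.6 and 49.5 CPM at day 4. It reached 1298 and 1113 CPM at day 8, a 20.9-fold ratio of means with a log2 difference of 3.67 (SE 0.52, limma adjusted p = 0.0425).

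Other circles of fatty acid genes were higher at day 8 without being called. circAcaca(2-3), of the acetyl-CoA carboxylase that makes malonyl-CoA, had 525 and 248 CPM at day 4 and 931 and 1374 CPM at day 8 (limma adjusted p = 0.174). circAcadm(3-8), of the medium-chain acyl-CoA dehydrogenase of fatty acid oxidation, had 87.5 and 0 CPM and then 318 and 403 CPM (0.294). circOsbpl9(9-12), of a lipid transfer protein, was the 1 circle of the list whose days overlapped, with 0 and 173 CPM against 147 and 379 CPM. The list thus held hosts of both fatty acid synthesis and oxidation. Over the whole table, where circRNAs of few reads enter, 33 circRNAs of 18 listed hosts included 21 higher and 1 lower without overlap (63.6% and 3.03%), against 24.6% and 22% of all 3869 listed. The 33 include the kept circles of this list. Each listed circRNA was above 0 in both libraries of some day, which favours differences among circRNAs of few reads. These counts therefore support nothing about the list either.

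**Figure D2:**
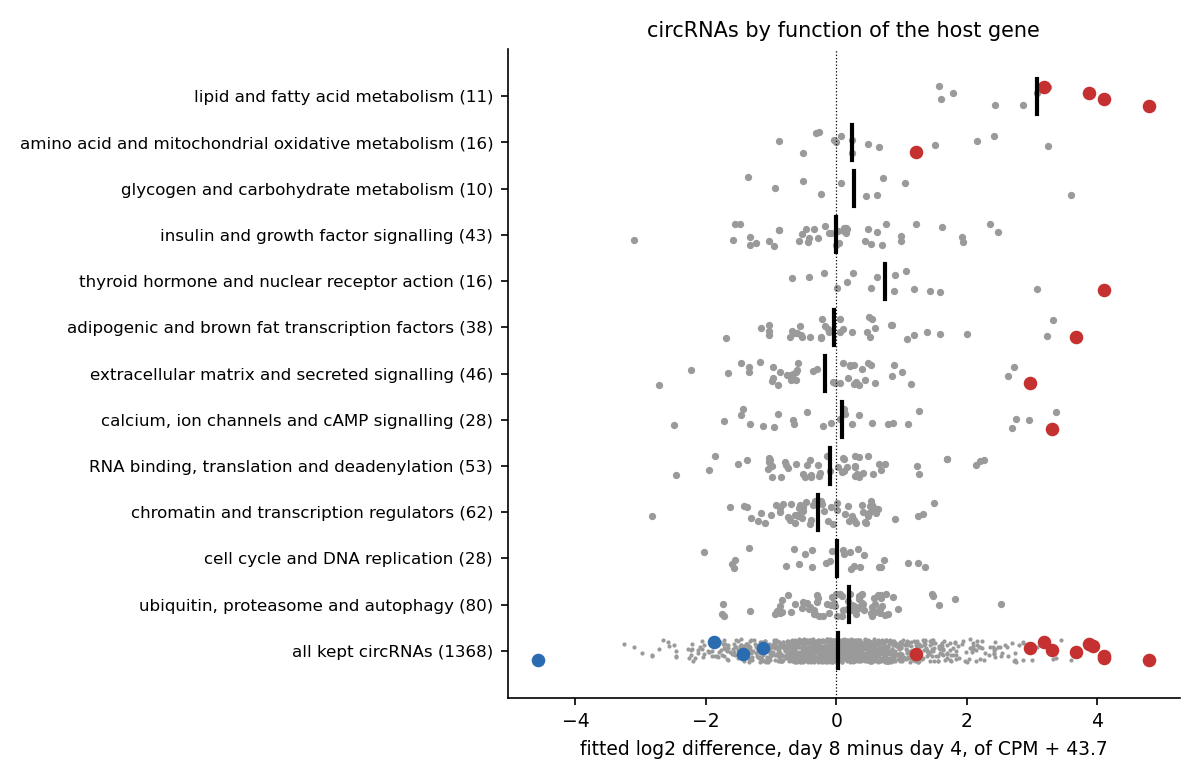
Fitted log2 difference of day 8 minus day 4 for each kept circRNA, grouped by the function of its host gene, with the number of circRNAs in parentheses (black bar, median; red, called higher; blue, called lower; grey, not called). The lipid list, where 9 of 11 circRNAs passed the filter only through day 8, has its median at 3.07 and no circRNA below 0, while most other lists centre near the median of all kept circRNAs, 0.03.

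Branched-chain amino acids are a fuel and a carbon source of fat cells. Bckdhb encodes a subunit of the mitochondrial complex that commits them to oxidation. circBckdhb(4-8) (chr9:83882383-83906226, plus strand) was an abundant circle that rose after day 4, with 859 and 726 CPM at day 0, then 2449 and 2451 CPM at day 4 and 5953 and 5282 CPM at day 8. From day 4 to day 8 the ratio of means was 2.29 and the log2 difference 1.22 (SE 0.17, limma adjusted p = 0.0425). The sum of its 4 circles was 3149 and 2996 CPM at day 4 and 7815 and 6467 CPM at day 8, and was called too (log2 difference 1.24, SE 0.17, limma adjusted p = 0.0292). circBckdhb(2-6) and circBckdhb(x) were higher without overlap and not called, and circBckdhb(2-8) overlapped.

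The other circles of amino acid and mitochondrial hosts were not called, though some had larger fitted differences than circBckdhb(4-8). Of 16 circRNAs on this list 1 was called, 6 were higher and 2 lower without overlap (37.5% and 12.5%, against 22.7% and 26.2% of all kept circRNAs), and the median log2 difference was 0.25. Of the 16, 4 passed the filter only through day 8 and 1 only through day 4. circSelenbp1(6-7), of a methanethiol oxidase that is abundant in adipocytes, had 241 and 49.5 CPM at day 4 and 1519 and 1421 CPM at day 8 (log2 difference 3.25, SE 0.68, limma adjusted p = 0.0935). circHibadh(2-4), of an enzyme of valine breakdown, had 1531 and 1089.5 CPM and then 2082 and 1919 CPM (0.291). circOgdh(3-4), of a tricarboxylic acid cycle enzyme, overlapped, with 3061 and 3789 CPM against 4189 and 3695 CPM. No circle of this list other than circBckdhb(4-8) passed the test.

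On the list of glycogen and carbohydrate metabolism 0 of 10 circRNAs were called, 5 were higher and 2 lower without overlap (50% and 20%, against 22.7% and 26.2% of all kept circRNAs), and 2 were higher and 1 lower at an unadjusted limma p under 0.05. Of the 10, 3 passed the filter only through day 8 and 1 only through day 4. circGbe1(4-7) (chr16:70433790-70441564, plus strand), of the glycogen branching enzyme, had 371 and 436 CPM at day 0, then 1290 and 1610 CPM at day 4 and 2964 and 2961 CPM at day 8 (log2 difference 1.06, SE 0.21, limma adjusted p = 0.0897). circPfkfb1(2-5) (chrX:147043129-147048494, plus strand), of an enzyme that sets the level of the glycolysis activator fructose 2,6-bisphosphate, had 0 and 49.5 CPM at day 4 and 710.5 and 687 CPM at day 8 (limma adjusted p = 0.0897). circUap1(2-5), of the enzyme that makes UDP-N-acetylglucosamine, was lower in both day 8 libraries, with 503 and 644 CPM against 220.5 and 166 CPM (limma adjusted p = 0.195).

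The T3 of the maturation medium acts through thyroid hormone receptors and their coactivators. Of 16 circRNAs on the list of thyroid hormone and nuclear receptor action 1 was called, circMe1(x), which the lipid list also holds. Without overlap 9 were higher and 2 lower (56.2% and 12.5%, against 22.7% and 26.2% of all kept circRNAs), and the median log2 difference was 0.75. Of the 16, 6 passed the filter only through day 8 and 3 only through day 4. circMed13l(2), of a Mediator subunit that links receptors to RNA polymerase, had 11830 and 7800 CPM at day 4 and 13842 and 13242 CPM at day 8 (limma adjusted p = 0.318). circEp300(18-19), of a histone acetyltransferase that coactivates nuclear receptors, had 765 and 495 CPM and then 1053 and 1255 CPM (0.312). No call was made for 15 of its 16 circRNAs.

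Fkbp5 encodes an immunophilin that binds the chaperone of the glucocorticoid receptor, and its gene is a standard target of glucocorticoids. circFkbp5(2) (chr17:28644181-28644414, minus strand), an untranslated exon whose junction is printed above, was listed at 0 at day 0 and had 43.7 and 0 CPM at day 4. At day 8 it had 833 and 924 CPM and rose with a limma adjusted p of 0.0425. Dexamethasone, a glucocorticoid, was in the day 0 to day 4 medium, and the labels do not list it for the medium of the last 4 days.

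Transcription factors that steer fat cells showed circles moving in both directions. Of 38 circRNAs on that list 1 was called, circMlxipl(3-7), and the median log2 difference was -0.03. Without overlap 9 were higher and 13 lower (23.7% and 34.2%, against 22.7% and 26.2% of all kept circRNAs). To pass the filter, 8 of the 38 needed day 8 and 6 needed day 4. circPparg(2-5), of the master regulator of adipocytes, had 109 and 173 CPM at day 4 and 343 and 379 CPM at day 8 (limma adjusted p = 0.329). circNfix(2) was among the 10 most abundant circles and had 8943 and 9113 CPM and then 13940 and 11134 CPM (0.148). circMitf(6-7) was at a listed 0 in the day 4 libraries and had 465 and 308 CPM at day 8 (0.0897). circEbf1(2-6), of an early adipogenic factor, had 0 and 322 CPM and then 1249 and 947.5 CPM (0.162).

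circZbtb38(3-5) followed another course. It had 1439 and 1550 CPM at day 0, then 43.7 and 124 CPM at day 4 and 343 and 521 CPM at day 8 (log2 difference from day 4 to day 8 2.00, SE 0.45, limma adjusted p = 0.107). Its day 8 level lay above day 4 and below day 0 in every library. Zbtb38 encodes a zinc finger protein that binds methylated DNA, and the circle holds untranslated exons alone.

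On the lower side of the same list, circTcf4(8-9), of a basic helix-loop-helix factor, had 284 and 495 CPM at day 4 and 98 and 71.1 CPM at day 8 (limma adjusted p = 0.150). circTead1(2), of the DNA-binding partner of YAP, had 1574 and 2699 CPM and then 955 and 805 CPM (0.155).

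Glis3 circles gave 2 of the 4 calls lower at day 8. It encodes a Krüppel-like zinc finger factor known for its part in pancreatic beta cells and thyroid. circGlis3(4) (chr19:28605363-28606476, minus strand) had 4641 and 4262 CPM at day 0, then 4220 and 6290 CPM at day 4 and 1886 and 1777 CPM at day 8, a fall by 1.43 on the log2 scale (log2 difference -1.43, SE 0.19, limma adjusted p = 0.0425). circGlis3(2) (chr19:28740243-28740726, minus strand) had 1574 and 1585 CPM at day 4 and 490.0 and 308 CPM at day 8 (-1.87, SE 0.28, 0.0425). Both day 8 values of each lie below all 4 earlier libraries.

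The other 4 Glis3 circles were also lower. circGlis3(5-6) had 1859 and 1486 CPM and then 661 and 474 CPM (limma adjusted p = 0.0897), circGlis3(3-4) had 3324 and 2352 CPM and then 1592 and 1019 CPM (0.172), and circGlis3(5-7) had 481 and 495 CPM and then 0 and 166 CPM (0.209). circGlis3(x) overlapped between the days. Summed over 6 circles Glis3 had 11720 and 12282 CPM at day 4 and 4630 and 3838 CPM at day 8. This sum had the smallest adjusted p of all 954 host sums (log2 difference -1.46, SE 0.13, limma adjusted p = 0.00403), and was called in 2 of the 6 fits that left out a library (0.0249 to 0.0811) and in the fit of 4 libraries (0.0185).

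**Figure D3:**
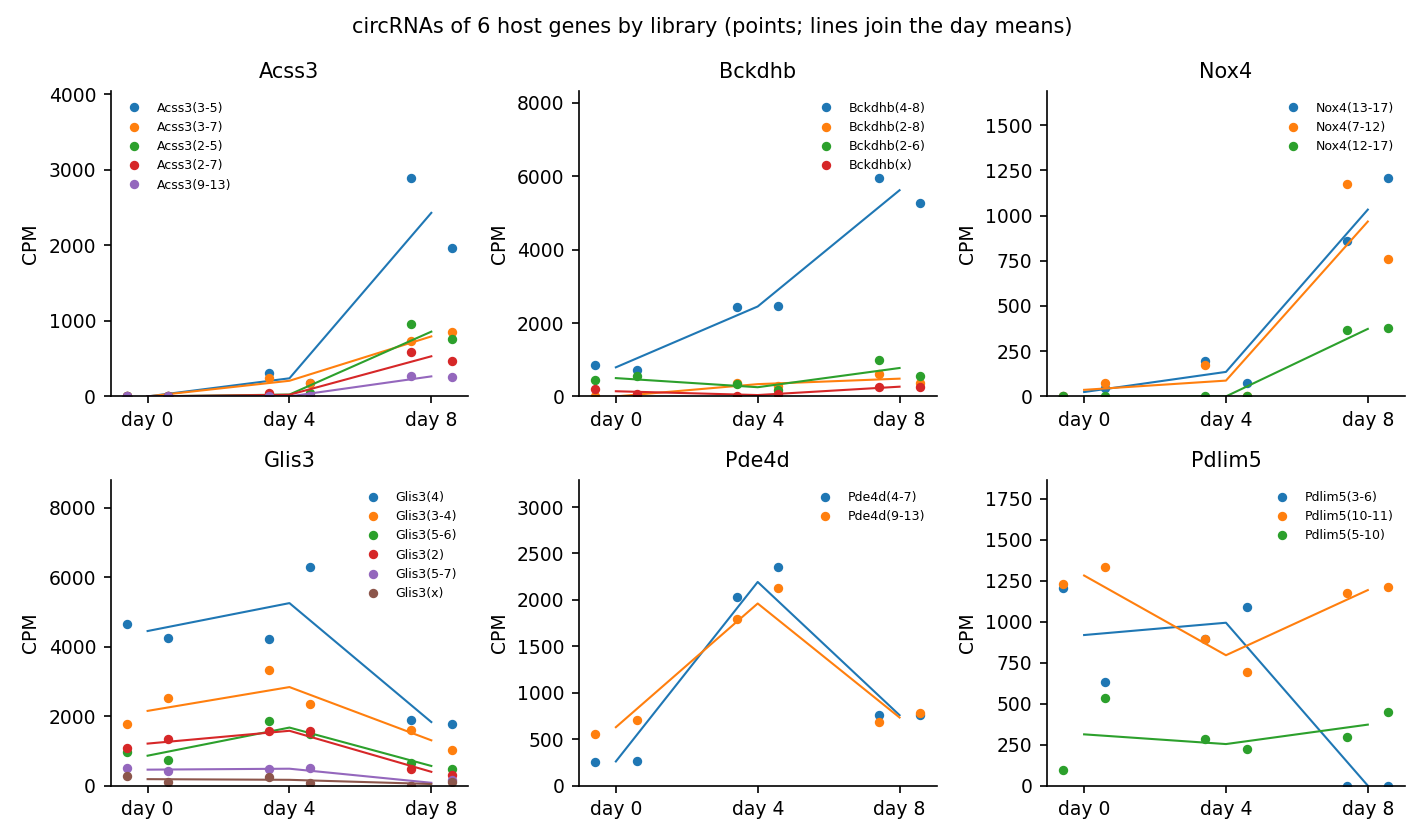
CPM of each kept circRNA of 6 host genes, with a point for each library and lines through the day means. The circles of Acss3, Bckdhb and Nox4 are highest at day 8, those of Glis3 and Pde4d have lower means at day 8 than at day 4, and circPdlim5(3-6) goes to a listed 0 while circPdlim5(10-11) does not.

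Cyclic AMP is the signal through which noradrenaline turns on brown fat, and phosphodiesterases break it down. Isobutylmethylxanthine, in the induction medium, blocks most phosphodiesterases. The pair of kept circles of Pde4d, a cAMP-specific phosphodiesterase, was highest at day 4, and circPde4d(4-7) stayed above its day 0 level at day 8. circPde4d(4-7) (chr13:110530595-110562888, plus strand) had 255 and 266 CPM at day 0, then 2034 and 2352 CPM at day 4 and 759 and 758 CPM at day 8 (limma adjusted p of day 8 against day 4 = 0.0600). circPde4d(9-13) had 557 and 702 CPM, 1793 and 2130 CPM and 686 and 782 CPM (0.0801). Their sum had 3827 and 4482 CPM at day 4 and 1445 and 1540 CPM at day 8 and was called (log2 difference -1.41, SE 0.20, limma adjusted p = 0.0309).

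Nox4 encodes an NADPH oxidase that makes hydrogen peroxide and is active in fat cells. circNox4(12-17) (chr7:94487467-94524792, plus strand) was listed at 0 in all 4 earlier libraries and had 367 and 379 CPM at day 8 (limma adjusted p = 0.0425). circNox4(13-17) had 197 and 74.3 CPM at day 4 and 857 and 1208 CPM at day 8, and circNox4(7-12) had 175 and 0 CPM and then 1176 and 758 CPM. These 2 were not called (limma adjusted p = 0.131 and 0.149), nor was the sum of the 3 (0.0779). circNox4(12-17) and circNox4(13-17) end with the same exon, as their shared last exon number shows.

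Scn7a encodes a sodium channel protein that senses sodium level. Neither of its circles was called alone, but their sum was. It had 65.6 and 49.5 CPM at day 4 and 1004 and 758 CPM at day 8 (log2 difference 3.22, SE 0.53, limma adjusted p = 0.0404), and 162 and 96.9 CPM at day 0. Among 28 circRNAs on the list of calcium, ion channels and cAMP signalling 1 was called, circNox4(12-17). Without overlap 9 were higher and 11 lower (32.1% and 39.3%, against 22.7% and 26.2% of all kept circRNAs). To pass the filter, 8 of the 28 needed day 8 and 3 needed day 4. On the lower side, the sum of 7 circles of the calcium channel gene Cacna1c had 6101 and 9261 CPM at day 4 and 5439 and 4311 CPM at day 8 and was not called (limma adjusted p = 0.156).

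Insulin was in both media. Of 43 circRNAs of insulin and growth factor signalling 0 were called by limma, 4 were higher and 5 lower at an unadjusted p under 0.05, and 11 were higher and 13 lower without overlap. The shares without overlap, 25.6% and 30.2%, were near those of all kept circRNAs, 22.7% and 26.2%. The filter took in 5 of the 43 only through day 8 and 8 only through day 4. circInsr(2), of the insulin receptor, had 1859 and 1931 CPM at day 4 and 3209 and 2535 CPM at day 8 (log2 difference 0.62, SE 0.18, limma adjusted p = 0.176). circGhr(2-8), of the growth hormone receptor, had 197 and 297 CPM and then 979.9 and 1066 CPM (0.272). circSos2(2-7) and circSos1(2-8), of the exchange factors that pass growth factor signals to Ras, were lower, with 918 and 1089.5 CPM against 294 and 355 CPM (0.100) and 547 and 446 CPM against 122 and 142 CPM (0.155). circMap2k5(9-13), of a kinase of the ERK5 pathway, had 590.4 and 718 CPM and then 269 and 189.5 CPM (0.147).

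circIgf1r(2), of the receptor for insulin-like growth factor, shows how far replicates could part. It had 1224 and 2377 CPM at day 4 and then 0 in one day 8 library and 876 CPM in the other (limma adjusted p = 0.304). Without the second day 8 library, which leaves a listed 0 for that day, the adjusted p was 0.0356. circSetd3(2-6) did the same, with 1618 and 1461 CPM at day 4, and 0 and 1042 CPM at day 8 (0.485). circSpen(2-3), of a transcriptional corepressor, had 569 and 446 CPM and then 0 and 284 CPM (0.329). These and circRfx3(4-6), of a factor that drives genes of cilia, were among the 12 largest differences on the lower side, and the last had 328 and 619 CPM and then 73.5 and 118 CPM (0.176).

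The matrix list gave 1 call. Fbn2 encodes fibrillin-2, a microfibril protein of developing tissue. circFbn2(5-7) (chr18:58308645-58349990, minus strand) stayed between 109 and 149 CPM in the 4 libraries of days 0 and 4 and reached 1053 and 1516 CPM at day 8. This was a 9.96-fold ratio of means, with a log2 difference of 2.97 (SE 0.44, limma adjusted p = 0.0425). circFbn1(3-6), of the related fibrillin-1, did not share this, with 109 and 198 CPM at day 4 and 0 and 189.5 CPM at day 8.

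Of 46 circRNAs on the matrix list 7 were higher and 18 lower without overlap (15.2% and 39.1%, against 22.7% and 26.2% of all kept circRNAs). The median log2 difference was -0.17 (-0.07 with listed zeros at their bound). To pass the filter, 9 of the 46 needed day 4 and 6 needed day 8. Over the 108 listed circRNAs of this list, 24.1% were higher and 29.6% lower without overlap, against 24.6% and 22% of all 3869 listed. circBmper(7-13), of a secreted regulator of bone morphogenetic proteins, was listed at 0 at days 0 and 8 and had 241 and 248 CPM at day 4 (limma adjusted p = 0.0601). circBmper(3-6) had 1203 and 1015 CPM at day 4 and 514 and 639.6 CPM at day 8 (0.604). circAdamts6(10-14), of a secreted protease, had 1115 and 792 CPM and then 367 and 308 CPM (0.131). circSvep1(2-3), of a large adhesion protein and 1 of the 10 most abundant circles, had 13798 and 13743 CPM and then 10877 and 9996 CPM (0.212). circItgbl1(3-7) went the other way, with 65.6 and 0 CPM and then 588 and 237 CPM (0.147).

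Fndc3b encodes a membrane protein of the endoplasmic reticulum that has been described as a regulator of adipogenesis. circFndc3b(3-4) (chr3:27519527-27542011, minus strand) had 2158 and 2155 CPM at day 0, then 3236 and 3764 CPM at day 4 and 1445 and 1611 CPM at day 8 (log2 difference -1.13, SE 0.17, limma adjusted p = 0.0425). circFndc3b(3-5) was lower in both libraries without being called (0.294). circFndc3b(9-12), from the middle of the gene, had 962 and 1089.5 CPM and then 1102 and 1113 CPM (0.780). The sum of its 4 circles was not called (0.0779).

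Pdlim5 encodes a scaffold that ties signalling enzymes to actin filaments. circPdlim5(3-6) (chr3:141966907-141977412, minus strand) had 1207 and 630 CPM at day 0, then 897 and 1089.5 CPM at day 4, and both day 8 libraries list it at 0 (limma adjusted p = 0.0323). It is the 1 called circle that went to a listed 0. The other Pdlim5 circles did not follow. circPdlim5(10-11) had 897 and 693 CPM at day 4 and 1176 and 1208 CPM at day 8 (0.301), and circPdlim5(5-10) had 284 and 223 CPM and then 294 and 450.1 CPM (0.781). The sum of the 3 was not called (log2 difference -0.34, SE 0.19, limma adjusted p = 0.385).

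Genes of RNA handling and chromatin host many abundant circles, and none was called. Of 53 circRNAs of RNA binding, translation and deadenylation 8 were higher and 20 lower without overlap (15.1% and 37.7%, against 22.7% and 26.2% of all kept circRNAs). Of these 53, limma put 1 higher and 7 lower at an unadjusted p under 0.05. To pass the filter, 9 of the 53 needed day 4 and 6 needed day 8. Over the 128 listed circRNAs of this list, 20.3% were higher and 22.7% lower without overlap, against 24.6% and 22% of all 3869 listed. circHnrnpll(2-8), of a splicing regulator, had 5778 and 6635 CPM at day 0, then 3717 and 4111 CPM at day 4 and 2278 and 2227 CPM at day 8 (log2 difference -0.74, SE 0.15, limma adjusted p = 0.0897). circRbms1(3-6) had 2777 and 3145 CPM at day 4 and 1543 and 1753 CPM at day 8 (0.103). circPtbp3(3-5), of a splicing repressor, had 7238 and 6661 CPM and then 4263 and 5235 CPM (0.233). The 4 circles of Pan3, of the poly(A) nuclease, were lower without overlap each, and their sum went from 4461 and 4878 CPM to 2033 and 2535 CPM without being called (log2 difference -0.98, SE 0.20, limma adjusted p = 0.0779).

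Of 62 circRNAs of chromatin and transcription regulators 0 were called by limma, with 0 higher and 4 lower at an unadjusted p under 0.05, and 8 were higher and 21 lower without overlap (12.9% and 33.9%, against 22.7% and 26.2% of all kept circRNAs). The median log2 difference, -0.28, was the lowest of the lists with at least 10 circRNAs. Of the 62, 11 needed day 4 to pass the filter and 7 needed day 8. Over the 147 listed circRNAs of this list, 20.4% were higher and 25.2% lower without overlap, against 24.6% and 22% of all 3869 listed. The counts and the median are a description of the kept circles. circNsd2(3-4), of a histone H3 lysine methyltransferase, had 4269 and 4431 CPM at day 0, then 2996 and 3194 CPM at day 4 and 1911 and 1753 CPM at day 8 (-0.70, SE 0.15, limma adjusted p = 0.0971). circEp400(2-3), of a remodelling ATPase, had 918 and 594 CPM and then 294 and 237 CPM (0.174). circKdm4c(6-8), of a histone demethylase, had 897 and 891 CPM and then 294 and 450.1 CPM (0.289).

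Division genes gave no call. Of 28 circRNAs of cell cycle and DNA replication 0 were called by limma (2 higher and 2 lower at an unadjusted p under 0.05), and 7 were higher and 7 lower without overlap (25% each, against 22.7% and 26.2% of all kept circRNAs), with a median log2 difference of 0.01. The filter took in 1 of the 28 only through day 8 and 2 only through day 4. The 3 circles of Diaph3, a formin needed for cytokinesis, were lower without overlap each, and their sum went from 1071 and 569.5 CPM to 98 and 261 CPM (log2 difference -1.96, SE 0.50, limma adjusted p = 0.0979). One of them, circDiaph3(21-24), had 306 and 198 CPM and then 0 and 71.1 CPM (0.234). On the same list, circCdk8(3-6), of the Mediator kinase, and circFancl(2-7), of the Fanconi anaemia pathway, were higher without overlap (0.253 and 0.301). The next pair of circles is not on this list and not in its counts. circKif15(2-5), of a mitotic kinesin, had 262 and 173 CPM at day 4, and a 0 in each of the day 8 libraries (limma adjusted p = 0.147). circRev1(7-22), of a DNA polymerase that bypasses lesions, had 875 and 941 CPM and then 147 and 166 CPM (0.0601). For ubiquitin, proteasome and autophagy hosts 0 of 80 were called by limma (2 higher and 3 lower at an unadjusted p under 0.05), and 20 were higher and 16 lower without overlap (25% and 20%, against 22.7% and 26.2% of all kept circRNAs). The filter took in 10 of the 80 only through day 8 and 10 only through day 4. circRnf169(2-4), of a ubiquitin ligase of the DNA damage response, had 1356 and 1882 CPM at day 4 and 784 and 450.1 CPM at day 8 (limma adjusted p = 0.114). circFbxl17(2-4), of an F-box protein, was lower too, with 2711 and 2749 CPM and then 1225 and 1682 CPM (0.147), and circRnf150(5-6) was higher, with 525 and 173 CPM and then 784 and 1066 CPM (0.235).

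Circles gave little on the identity of the cells. Of the brown adipocyte markers 3 genes had a listed circle, Ebf2, Letmd1 and Prdm16. Of their 4 listed circles 1 was higher and 1 lower without overlap (25% each, against 24.6% and 22% of all 3869 listed). Of these, circPrdm16(2) alone was kept, with 197 and 223 CPM at day 4 and 122 and 94.8 CPM at day 8 (limma adjusted p = 0.517). No listed circle was matched to Ucp1, the heat-producing uncoupling protein, so the brown label could not be checked with it.

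Other cell types left few circles. Among the named hosts there was no endothelial, skeletal muscle, pericyte or smooth muscle marker, and of the Schwann and neuronal markers 1, Csmd1, had one, which was not kept. Macrophage markers had 5 listed circles, of Adgre1 and Mertk, of which 3 were higher and 0 lower without overlap, against 24.6% and 22% of all 3869 listed. circMertk(3-4) was kept, with 175 and 198 CPM at day 4 and 294 and 237 CPM at day 8 (limma adjusted p = 0.691). Its part in the results was not tested. Precursor markers had 6 listed circles of 4 hosts, of which 1 was higher and 1 lower without overlap (16.7% each), and 1 was kept, circFbn1(3-6).

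A circle without a named host was called too. circ17_34872349 (chr17:34872349-34952518, minus strand) was listed at 0 in the 4 earlier libraries and had 661 and 711 CPM at day 8 (limma adjusted p = 0.0361). With a second circle that overlaps it, the locus sum had a listed 0 at day 4 and 1225 and 1019 CPM at day 8 (limma adjusted p = 0.0399). The ends of circ17_34872349 were not matched to exons and lie 80170 bp apart, against a median of 7922 bp over all kept circRNAs. circ13_108559640 had 612 and 743 CPM at day 4 and 73.5 and 237 CPM at day 8 (0.137). circ4_71818497 had 1246 and 1288 CPM at day 4 and then 588 CPM in one day 8 library and a listed 0 in the other (0.409). circ19_44316150 had 590.4 and 693 CPM and then 539 and 0 CPM (0.493).

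Circles of one gene did not always move together. Of 79 hosts with at least 3 kept circles, 26 had fitted differences of 1 sign, 12 all higher and 14 all lower, and 13 (16.5%) had circles higher and circles lower without overlap. Over all kept circRNAs 22.7% were higher and 26.2% lower without overlap, so nothing is read from this share. Acss3, Bckdhb and Apbb2 were among those all higher, and Glis3, Bmper, Sdk1 and Nbea among those all lower. The widest range was that of Pdlim5, from circPdlim5(3-6) to circPdlim5(10-11).

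Atrnl1, an attractin-like membrane protein gene, gave an example within a shared splice site. circAtrnl1(22-26) (chr19:57826120-57871993) had 1968 and 2154 CPM at day 4 and 1298 and 1374 CPM at day 8. circAtrnl1(22-25), which shares its first exon and lacks the last, had 328 and 569.5 CPM and then 857 and 711 CPM. circAtrnl1(2-5) was at a listed 0 in the day 4 libraries and had 245 and 284 CPM at day 8. In Canx, of the chaperone calnexin, circCanx(5-9) had 306 and 396 CPM and then 0 and 71.1 CPM, while circCanx(5-8) had 65.6 and 124 CPM and then 220.5 and 403 CPM. None of these was called. These hosts were picked after their values were seen.

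Host sums gave 9 calls among 954 hosts and loci (0.943%), 7 higher (0.734%) and 2 lower (0.21%). The higher ones were Acss3, Bckdhb, Pnpla3, Fbn2, Mlxipl, Scn7a and the locus on chromosome 17, and the lower ones Glis3 and Pde4d. Pnpla3, Fbn2 and Mlxipl had 1 kept circle each, so these sums repeat circles already called. The sums add kept circRNAs only and carry the same filter. The split of the sums by direction is therefore a description that supports nothing. Sums of 246 hosts were higher (25.8%) and 248 lower (26%) without overlap. Among hosts with at least 3 circles that were not called, Dennd1b, a regulator of vesicle traffic, had 897 and 1114 CPM and then 2768 and 2085 CPM (limma adjusted p = 0.0513). Nbea, a scaffold of secretory traffic, had 940.2 and 867 CPM and then 367 and 284 CPM (0.0805), Abcc1, an export pump, had 1465 and 1362 CPM and then 343 and 829 CPM (0.149), and Sdk1, an adhesion protein, had 2274 and 1733 CPM and then 612 and 711 CPM (0.259). Its circle circSdk1(3-4) had 1028 and 693 CPM and then 147 and 142 CPM (0.234). Atp9b, of a lipid-flippase family, was higher as a sum of 4 circles, with 765 and 941 CPM and then 1323 and 1753 CPM (0.164).

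**Figure D4:**
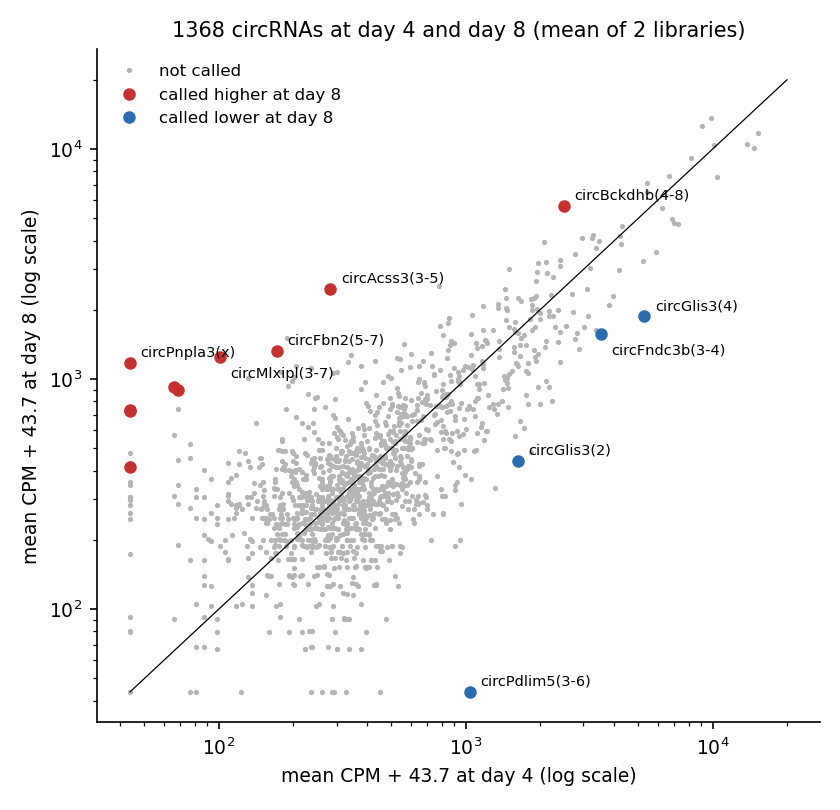
Mean CPM plus 43.7 of 2 libraries at day 4 (horizontal, log axis) and day 8 (vertical, log axis) for the 1368 kept circRNAs, with the line of equal values. The called circRNAs (red higher, blue lower) lie off the line over a range from a listed 0 to about the level of circBckdhb(4-8), and the most abundant circles at the upper right lie near it.

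The most abundant circles gave no call. None of the 10 with the highest mean over days 4 and 8 was called, at limma adjusted p from 0.114 to 0.780. circMettl9(2-4) had 9993 and 10128 CPM at day 4 and 9873 and 10920 CPM at day 8, and circLrch3(2-6) had 9096 and 7206 CPM and then 8868 and 9286 CPM. circErbin(2-4) overlapped as well, with 7609 and 5671 CPM and then 6345 and 8859 CPM (0.679). circHipk3(2), a widely studied circle of a kinase gene, had 16640 and 13768 CPM and then 11024 and 12389 CPM (0.366). circ15_61938703, with no named host, had 13666 and 15675 CPM and then 9775 and 10328 CPM (0.114). Among the 10, circNfix(2), circAcvr2a(2-4) and circMed13l(2) were higher without overlap, and circSvep1(2-3), circHipk3(2), circCnot6l(2-4) and circ15_61938703 lower.

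Few kept circles were listed at 0 in both libraries of a day. Of the 1368, 19 were at 0 in both day 4 libraries and 10 in both day 8 libraries, and 1 more was listed at 0 on both days. The day 8 mean of the 19 had a median of 265 CPM and a highest value of 1131 CPM, for circPnpla3(x). The day 4 mean of the 10 had a median of 231 CPM and a highest value of 993 CPM, for circPdlim5(3-6). Such a circRNA passed the abundance filter through its other days, so these numbers support no count of changes.

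Features that the choice of circRNAs did not use are given as a description, with no test. Of all kept circRNAs 80.5% had a circBase identifier, against 66.4% of the 110 that were higher at an unadjusted p under 0.05 and 82.6% of the 109 that were lower. Of the 10 called higher, 3 had one. The median distance between the ends was 7922 bp over all, 9338.5 bp for the 110 and 11262 bp for the 109. Among those with exon structure, exon 2 was the first exon in 39.3% over all, in 34.7% of the higher and in 45.9% of the lower, and the median number of exons was 3 in each.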

How the data were processed

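CircRNAs were measured in 6 libraries of cultured mouse cells, 2 per day. Per the labels' protocols, libraries were built from Trizol-extracted RNA after removal of rRNA and of linear RNA. The submitters' processing notes name FastQC 0.11.9, HISAT2 2.2.0 and build mm9; the circRNA caller was not given in the sources used. The authors deposited CPM values of 3869 circRNAs, normalized to the same total in each column. Each of the 3869 exceeded 0 in both replicates of some day, a selection by detection that favours differences between days among circRNAs of few reads. Every value was a whole multiple of 21.9 to 24.8 CPM, taken as 1 read (largest deviation 2.52e-07 of a step). The columns then hold 40384 to 45733 reads, and the kept circRNAs 80.5% to 83.0% of CPM. Sequencing depth is unknown.

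CPM were scaled with TMM factors (trimming 30% of log ratios and 5% of levels) and fitted as log2(CPM + 43.7) with limma 3.58.1 (R 4.3.3, trended prior variance) on all 6 libraries by day. The log2 differences understate changes near the pseudocount. An exact permutation test of 2 against 2 libraries cannot go below p = 0.333. The procedure was tested on simulated data. The planned count models were not run, since the deposited unit is CPM. Host sums added the kept circRNAs of a gene. Exon spans were matched to GENCODE M21 (build GRCm38) with a shift shared by at least 3 neighbours within 1.5 Mb, and no match arose on the opposite strand (0). No coordinates were converted, and no sequence of chromosome 18 is printed.

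Named are every called circRNA, the 12 largest differences each way among circRNAs without overlap and at least 20 reads, the 10 most abundant, the 3 of smallest p per list (with further members for context), and called or largest host sums. The comparison, the lists and the rules were chosen with earlier results of these data known. Alternatives are given in the closing section. The results of 2 host lists are not reported here, nor is every circRNA named through them.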

Additional observations from a re-analysis of the deposited data

How the results depend on the processing

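The 14 calls (10 higher, 4 lower) depended on the libraries and the filter. limma called 0 circRNAs in the 4 libraries of days 4 and 8 alone (217 at an unadjusted p under 0.05) and 0 with the replicate block (196), 57 with at least 5 reads (41 higher, 16 lower) and 343 over all listed circRNAs (218 higher, 125 lower). Leaving out a library gave 0 to 6. It gave 0 without either day 0 library, either day 4 library or day 8 replicate 1 (unadjusted 215, 203, 244, 183 and 158), and 6 without day 8 replicate 2, of which circPnpla3(x), circMe1(x), circNox4(12-17) and circ17_34872349 were among the 14. All 14 were called in the fits with pseudocount 100 (19 in all), without scaling (14), with median-of-ratios factors (14), with at least 10 reads in at least 2 of the 4 libraries (19), with at least 5 reads and over all listed circRNAs. With pseudocount 10 limma called 10, of which 8 were among the 14, and without the trend 15, of which 10 were. Replicate numbers did not pair the libraries (correlation of deviations -0.02 for each of 3 pairs of days). The 9 host sums became 1 with pseudocount 10, 17 with pseudocount 100, 14 with median-of-ratios factors, 1 with the replicate block, 9 without scaling, 11 in the 4 libraries and 0 to 10 with a library left out (0 without either day 4 library or the first day 8 library, 1 without the second). Counts without overlap went from 668 to 1183 with at least 5 reads and 1801 over all listed circRNAs. None of the 14 called circRNAs or 9 called host sums changed direction in any of these. Of 59 circRNAs that the naming rule chose and that were not called, 4 changed sign with a library left out, where their adjusted p ran from 0.391 to 0.977 for circErbin(2-4), 0.161 to 0.968 for circLrch3(2-6), 0.354 to 0.869 for circFbn1(3-6) and 0.671 to 0.986 for circMettl9(2-4), and of 13 such host sums none (0) did. Of the 59, 17 were called in at least 1 alternative, 15 of these over all listed circRNAs, and of the 13 sums 4 were. Other named circRNAs were not run. The cause was not tested, except that fits with fewer libraries hold fewer samples. Below 20 reads counting error limits what can be seen. The count models were not run as alternatives.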
